A study of Mus musculus with 47 samples.

Results

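The genes described here are those carried by the mitochondrial genome itself. They were taken as the rows of the deposited count and FPKM tables whose gene name begins with mt-, which gave 37 of 48795 genes. Of these, 13 encode proteins of the respiratory chain, 2 encode the rRNAs of the mitochondrial ribosome and 22 encode tRNAs. RNA was sequenced from the cerebral cortex of 47 mice aged 6 months, 24 male and 23 female, on a C57BL background. The sample titles call this RNA mRNA. The groups were Q140 x Ccdc82-/- (n = 7), Q140 x Ccdc82+/- (n = 8), Q140 (n = 8), Ccdc82-/- (n = 8), Ccdc82+/- (n = 8) and wild type (WT, n = 8). The Q140 allele carries a long CAG repeat knocked into the mouse huntingtin gene and models Huntington's disease; each Q140 mouse was heterozygous for it. Ccdc82 is named for its coiled-coil domain. The sources used here do not say how its allele was made or whether mice of different groups were littermates. The labels number the libraries within genotype and sex, and each was taken as 1 mouse.

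The mitochondrial genome is a small circle that the cell keeps in many copies. Both of its strands are transcribed into long precursors by the nuclear-encoded polymerase Polrmt with Tfam and Tfb2m, and cleavage at the tRNAs releases the single mRNAs and rRNAs. The mRNAs supply core subunits of the respiratory complexes, on which neurons depend for most of their ATP, and mitochondrial dysfunction has long been studied in Huntington's disease. Pieces of mitochondrial DNA have also been inserted into the nuclear chromosomes during evolution, and reads from such a piece and from its mitochondrial source can be alike.

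The 47 libraries held 43554594 to 61370843 counts each (median 50473683). Ccdc82 itself lay between 4.71 and 5.90 CPM (the count scaled to the library total) in Q140 x Ccdc82-/- and between 4.59 and 6.39 CPM in Ccdc82-/-. It lay between 10.5 and 13.3 CPM in Q140 x Ccdc82+/-, 13.9 and 16.8 in Q140, 9.64 and 12.2 in Ccdc82+/-, and 14.2 and 19.1 in WT, in the order of the labels. Cortical excitatory neuron markers were high in all libraries (Slc17a7, a vesicular glutamate transporter, had a median of 226 FPKM), whereas the striatal marker Drd1 had 1.63 FPKM and the choroid plexus marker Folr1 0.0554 FPKM. The tissue label and its markers were therefore not at odds.

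Where the members lie, and which of their sequence also occurs in other annotated transcripts, is given before the values. The shared part differs strongly between members. The 37 genes span positions 1 to 15422 of the mitochondrial chromosome (chrM, GRCm38), 28 on the plus strand and 9 on the minus strand. mt-Nd6 is the only protein gene on the minus strand. In the GENCODE M21 annotation, a row of 7 unprocessed pseudogenes on chromosome 1 (chr1:24611535-24616188, minus strand) aligned to the mitochondrial stretch from position 6390, in the 3′ part of mt-Co1, to position 11042, inside mt-Nd4. The stretch is 4654 bases long on chromosome 1 and 4653 bases long on chrM, and 6 of the 8 alignments kept the same offset between both chromosomes. It holds mt-Co2, mt-Atp8, mt-Atp6, mt-Co3, mt-Nd3 and mt-Nd4l whole. Over their aligned bases mt-Co2, mt-Atp6, mt-Co3 and mt-Nd4l were 100% identical to Gm28661, Gm10925, Gm28437 and Gm10222. Of all 100-base windows of the gene, 99.5% in mt-Co2, 99.5% in mt-Atp6, 99.9% in mt-Co3, 97.6% in mt-Nd3 and 98.5% in mt-Nd4l occurred unchanged in a transcript of another gene. The share was 60.8% in mt-Nd4, 30.8% in mt-Co1, 3.20% in mt-Nd2 and 0% in mt-Nd1, mt-Nd5, mt-Nd6, mt-Cytb and both rRNA genes. More diverged copies exist of some of these: mt-Nd6 aligned to Gm11408 at 93.6% identity and mt-Cytb to Gm11410 at 92.9%. mt-Atp8 also had 0% by this measure because no annotated transcript covers the chromosome 1 bases that face most of it. It lies between the counterparts of Gm28661 and Gm10925, which had the same offset. The genome sequence there was not used here. For no member was nuclear sequence outside annotated transcripts searched, so a share of 0% does not mean that no copy exists. In 50-base windows the share was 51.1% in mt-Co1, 8.19% in mt-Nd2, 7.61% in mt-Nd5 and 1.04% in mt-Rnr2. It stayed at 0% in mt-Nd1, mt-Nd6, mt-Cytb and mt-Rnr1.

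Windows of mt-Co1 and mt-Nd3 show how close the copies are. In bases 1174 to 1293 of mt-Co1 (chrM:6501-6620), the chromosome 1 copy Gm29216 (chr1:24615958-24616077, minus strand) had the same letters, whereas the chromosome 2 copy Gm13340 (chr2:22588355-22588474, minus strand) differed at 6 positions, shown in capitals. Counted from 1 at the 5′ end of mt-Co1, with the base of mt-Co1 written before that of Gm13340, these were T1179C, G1180A, C1209T, A1251G, A1260G and G1293A. Over all 1545 bases Gm13340 differed at 37 positions.
mt-Co1: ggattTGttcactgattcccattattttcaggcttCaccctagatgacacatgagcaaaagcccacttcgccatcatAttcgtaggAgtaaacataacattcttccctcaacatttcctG
Gm29216: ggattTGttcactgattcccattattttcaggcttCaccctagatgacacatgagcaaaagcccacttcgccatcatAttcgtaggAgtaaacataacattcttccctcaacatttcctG
Gm13340: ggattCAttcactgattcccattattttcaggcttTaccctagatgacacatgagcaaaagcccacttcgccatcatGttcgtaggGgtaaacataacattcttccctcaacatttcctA

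mt-Nd3 differed from its chromosome 1 copy Gm28438 by 1 base in 345, T3C counted from the 5′ end of mt-Nd3. It lies inside the start codon and is in capitals below (chrM:9459-9538 and chr1:24613040-24613119, minus strand). At the other aligned positions both genes have the same letters.
mt-Nd3: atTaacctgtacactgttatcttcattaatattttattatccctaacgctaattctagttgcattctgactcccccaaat
Gm28438: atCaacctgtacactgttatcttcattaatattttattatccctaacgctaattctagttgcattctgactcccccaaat

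The ends of the aligned stretch lie in mt-Co1 (chrM:6350-6429) and mt-Nd4 (chrM:11003-11082). In mt-Nd4 the alignment stops where the annotated Gm28439 stops, as all of its 876 bases aligned. Chromosome 1 past the annotated transcripts was not searched, so the copy may reach further. Capitals mark bases inside the alignment with Gm29216 or Gm28439, and lower case marks bases outside it. The bases of mt-Co1 before position 1063 lie outside the alignment with Gm29216.
mt-Co1 edge: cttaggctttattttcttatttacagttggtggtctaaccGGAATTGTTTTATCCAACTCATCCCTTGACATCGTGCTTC
mt-Nd4 edge: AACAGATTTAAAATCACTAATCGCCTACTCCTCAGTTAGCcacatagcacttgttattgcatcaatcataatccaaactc

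Members also overlap each other. mt-Atp8 and mt-Atp6 share 43 bases on the same strand (capitals, chrM:7900-7969 and chrM:7927-7996), mt-Nd4l and mt-Nd4 share 7, and mt-Nd5 and mt-Nd6 overlap by 14 bases on opposite strands (capitals, chrM:13516-13565 and chrM:13552-13601). The libraries were stranded by the labelled protocol, but the sources used here do not give the counting settings for strand, for overlapping genes or for reads with several matches.
mt-Atp8 end: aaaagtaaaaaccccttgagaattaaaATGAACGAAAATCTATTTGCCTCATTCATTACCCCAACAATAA
mt-Atp6 start: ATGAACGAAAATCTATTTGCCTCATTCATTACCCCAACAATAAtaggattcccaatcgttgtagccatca
mt-Nd5 end: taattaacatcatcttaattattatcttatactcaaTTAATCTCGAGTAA
mt-Nd6 end: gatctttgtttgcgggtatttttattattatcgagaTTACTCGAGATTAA

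Levels per length (FPKM, counts scaled to gene length and library size) differed widely between genes and little between libraries. mt-Co1, the catalytic subunit of cytochrome c oxidase (complex IV), had a median of 11186 FPKM (range 10301 to 12587 over 47 libraries). It ranked highest of all 48795 genes in 47 of 47 libraries. mt-Cytb, the cytochrome b subunit of complex III, followed with 5407 FPKM (4983 to 6031), 2.07-fold below mt-Co1. Among the subunits of NADH dehydrogenase (complex I), mt-Nd1 had 5380 FPKM (4827 to 5798), mt-Nd2 3421 (3133 to 3954), mt-Nd5 2227 (2003 to 2515) and mt-Nd4 2111 (1866 to 2301). mt-Nd6, the complex I subunit encoded on the minus strand, had 82.8 FPKM (64.0 to 139), 26.9-fold below mt-Nd5, whose 3′ end it overlaps. The small-subunit rRNA gene mt-Rnr1 had 2679 FPKM (2351 to 3323) and the large-subunit rRNA gene mt-Rnr2 2147 FPKM (1919 to 2607). In the order mt-Co1, mt-Cytb, mt-Nd1, mt-Nd2, mt-Rnr1, mt-Nd5, mt-Rnr2, mt-Nd4 and mt-Nd6, the range of mt-Co1 stood clear of mt-Cytb, that of mt-Nd1 clear of mt-Nd2 and that of mt-Nd4 clear of mt-Nd6, while the other neighbours overlapped.

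The 6 mRNA genes that lie whole inside the copied stretch were the 6 lowest mRNA genes. Their median levels were 15.96 FPKM for mt-Atp8 and 8.98 FPKM for mt-Atp6, subunits of ATP synthase, 14.1 FPKM for mt-Co2 and 9.68 FPKM for mt-Co3, subunits of cytochrome c oxidase, and 3.23 FPKM for mt-Nd3 and 2.22 FPKM for mt-Nd4l, subunits of complex I. mt-Co1 was 792-fold above mt-Co2 and mt-Nd4 was 949-fold above mt-Nd4l, its neighbour in the same precursor. The chromosome 1 copies of the low genes were listed at higher counts than their sources: the median library had 701 counts for Gm28661 and 487 for mt-Co2, 1349 for Gm10925 and 316 for mt-Atp6, and 635 for Gm28437 and 370 for mt-Co3. mt-Nd4, with 60.8% of its windows shared, and mt-Co1, with 30.8%, were high, at 144281 and 872300 counts in the median library, beside 351 for Gm28439 and 773 for Gm29216. The part of read assignment in these values was not tested, and the levels of the 6 low genes are uncertain. The levels of mt-Nd4 and mt-Co1 are open to the same limit, as are ranks and ratios that use them.

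**Figure D1:**
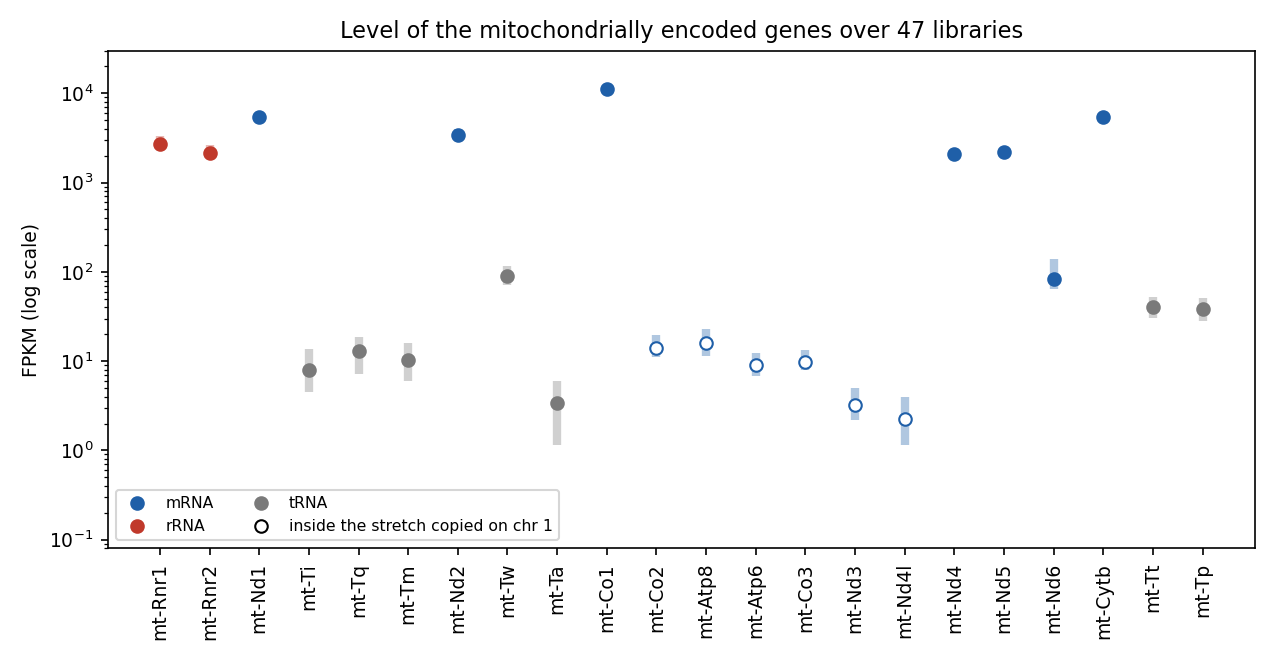
FPKM on a log axis for the 22 members that passed the filter on low counts, in order along the mitochondrial genome. Circles are medians and bars the range over 47 libraries (blue mRNA, red rRNA, grey tRNA); open circles lie inside the stretch copied on chromosome 1. The 6 open mRNA circles lie between 2.22 and 15.96 FPKM, and the other mRNA genes between 82.8 FPKM for mt-Nd6 and 11186 FPKM for mt-Co1.

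tRNA genes gave few reads. How well libraries labelled mRNA captured tRNA, rRNA and mt-Nd6 was not tested. Their levels here need not be those in the tissue. The highest medians were 90.4 FPKM for mt-Tw (tryptophan tRNA), 40.5 FPKM for mt-Tt (threonine) and 38.4 FPKM for mt-Tp (proline), which rest on 298, 137 and 127 counts in the median library. mt-Tq (glutamine), mt-Tm (methionine), mt-Ti (isoleucine) and mt-Ta (alanine) passed the filter as well, with medians from 3.40 to 13.1 FPKM. Of the others, 8 had 0 counts in all 47 libraries, which at the median depth allows up to 0.0594 CPM per library by counting error alone. In all, 22 members entered the tests: 13 mRNA, 2 rRNA and 7 tRNA genes. The other 15 were tRNA genes, of which mt-Te (glutamate) had the most reads, 249 counts over the 47 libraries.

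Together the 37 genes took 4.54 ± 0.150% of the counts (SD, n = 47), of which the 13 mRNA genes took 3.94% and the rRNA genes 0.597%. mt-Co1 alone held 38.3% of the members' counts. The lowest library was Q140 x Ccdc82-/- F1 (female 1) with 4.24% (95% Wilson interval 4.23 to 4.24) and the highest Q140 F1 with 5.03% (5.02 to 5.04). These intervals cover counting error only, and the spread between libraries is far wider. The share was 4.51 ± 0.158% in Q140 x Ccdc82-/- (n = 7), 4.57 ± 0.158% in Q140 x Ccdc82+/-, 4.54 ± 0.227% in Q140, 4.47 ± 0.119% in Ccdc82-/-, 4.59 ± 0.140% in Ccdc82+/- and 4.53 ± 0.0834% in WT (SD, n = 8 each). Each group overlapped each of the others. In all mice with Q140 it was 4.54 ± 0.179% (n = 23), against 4.53 ± 0.121% in all mice without it (n = 24). The rRNA share was 0.606 ± 0.0467% with Q140 and 0.588 ± 0.0402% without. Such shares are bulk values, in which fewer cells of a type and less RNA per cell cannot be told apart.

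**Figure D2:**
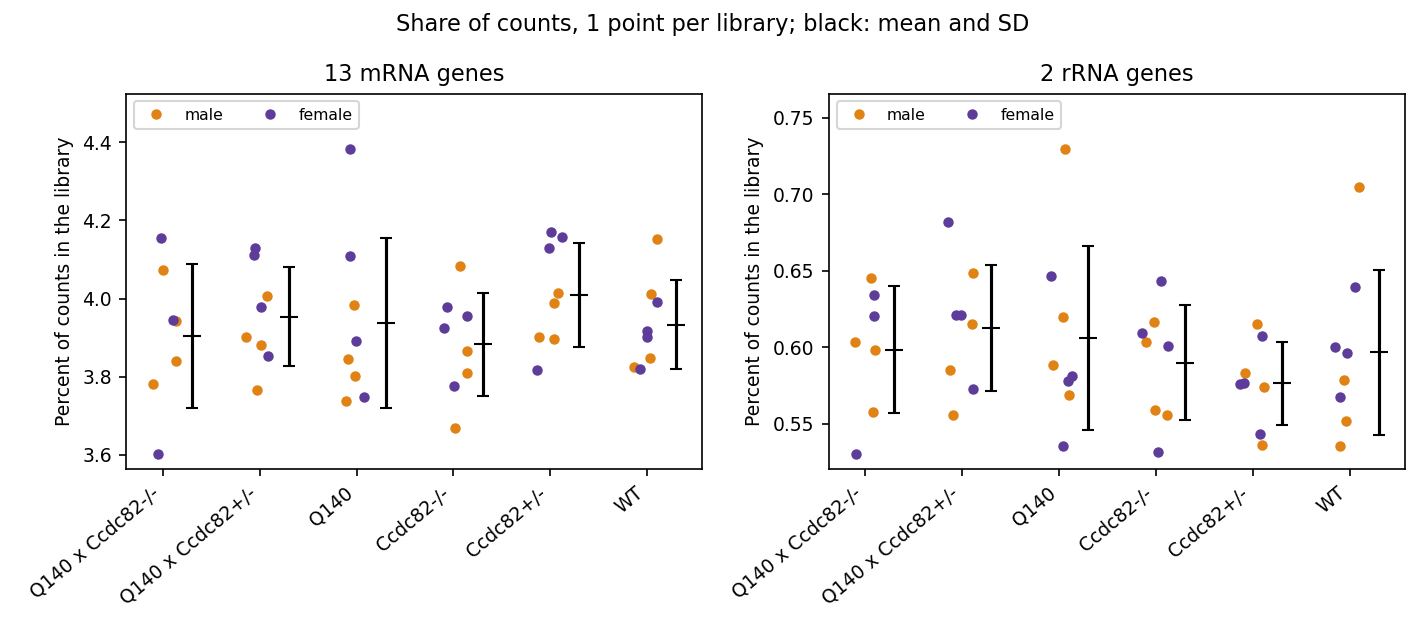
Percent of a library's counts in the 13 mRNA genes (left) and the 2 rRNA genes (right), 1 point per library, with group mean and SD in black; orange is male and purple female. The groups overlap throughout, and the highest mRNA share, 4.38%, is Q140 F1.

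The comparisons with Q140 address whether the Huntington allele changes mitochondrial transcripts. Averaged over the 3 Ccdc82 genotypes, 0 of 22 members were called at an adjusted p under 0.05 by edgeR's quasi-likelihood test, against 0.876% of all 19174 genes; 1 member had an unadjusted p under 0.05, and DESeq2 and limma also called 0. mt-Co1 lay between 15915 and 19447 CPM in mice with Q140 (median 17201, n = 23), against 16080 and 18473 CPM in mice without it (median 17349, n = 24). The fitted log2 difference was -0.012 (SE 0.016, 95% interval -0.044 to 0.021). The 6 abundant mRNA genes, mt-Nd1, mt-Nd2, mt-Co1, mt-Nd4, mt-Nd5 and mt-Cytb, had log2 differences from -0.014 to -0.0037, with SE from 0.015 to 0.019. mt-Rnr2 had a median of 3451 CPM in mice with Q140 and 3297 CPM in mice without. Its fitted difference was 0.041 (SE 0.033, adjusted p = 0.786 by edgeR), beside 0.031 (SE 0.034) for mt-Rnr1.

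The member with the smallest p in that average was mt-Tt, with a log2 difference of 0.10 (SE 0.049, adjusted p = 0.512). It lay between 2.16 and 3.53 CPM with Q140 (median 2.78) and between 2.05 and 3.24 CPM without it (median 2.66). The 6 low mRNA genes of the copied stretch had negative differences, from -0.19 for mt-Nd4l (SE 0.11) to -0.047 for mt-Co3 (SE 0.044), none past the threshold, and the nuclear copies had a median of -0.016 with 7 of 9 below 0. The median over the 13 mRNA genes was -0.014, beside a median of 0.00085 over all genes tested.

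On each Ccdc82 genotype taken alone, the count was also 0 of 22 members. For Q140 against WT, 0.0313% of all genes were called, and 2 members had an unadjusted p under 0.05. They were mt-Nd6, with 0.38 (SE 0.14, adjusted p = 0.565), and mt-Tt, with 0.21 (SE 0.084, adjusted p = 0.594). For Q140 x Ccdc82+/- against Ccdc82+/-, 0.0313% of all genes and 0 members were called, and the smallest p was that of mt-Tt (0.14, SE 0.084, adjusted p = 0.999). For Q140 x Ccdc82-/- against Ccdc82-/-, 0.0209% of all genes and 0 members were called, and the smallest p was that of mt-Tp (0.16, SE 0.090, adjusted p = 1.0). In both of these, 0 members had an unadjusted p under 0.05. DESeq2 and limma called 0 members in each of the 3 contrasts.

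**Figure D3:**
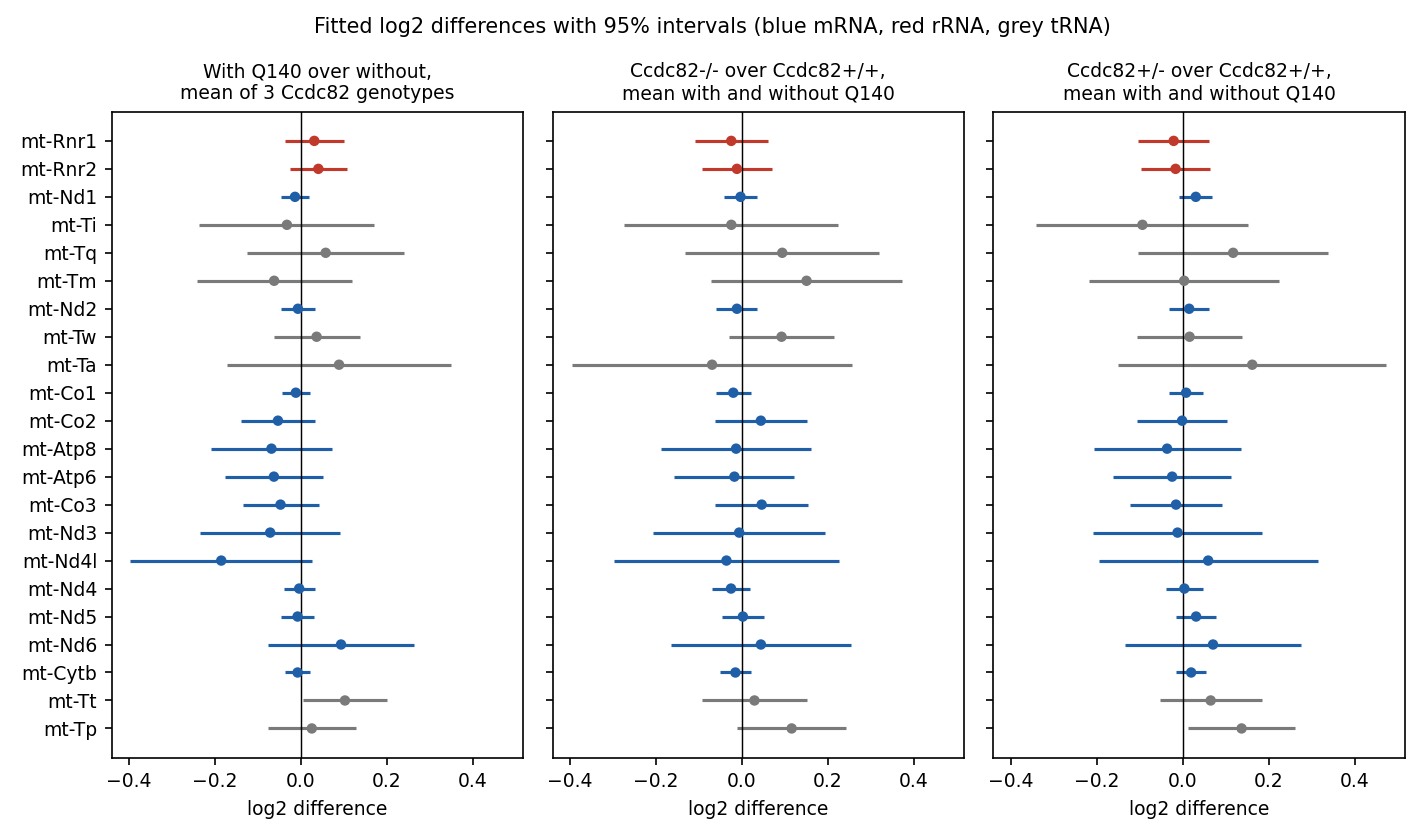
Fitted log2 differences of the 22 members with 95% intervals, for Q140 (left), Ccdc82-/- (middle) and Ccdc82+/- (right), each averaged over the other allele. The abundant mRNA genes lie within 0.04 of 0 with short bars, while tRNA genes, mt-Nd6 and the low mRNA genes have long ones.

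In the comparisons of Ccdc82 genotypes no member was called either. Ccdc82-/- averaged over both Q140 genotypes gave 0 of 22 members, with 0.00522% of all genes (1 gene) called; 0 members had an unadjusted p under 0.05. The abundant mRNA genes had log2 differences from -0.025 to 0.0028. mt-Co1 had a median of 17349 CPM in Ccdc82-/- and 17252 CPM in WT, and its averaged log2 difference was -0.020 (SE 0.020, 95% interval -0.060 to 0.021). Ccdc82+/- averaged over both Q140 genotypes also gave 0 members, with 0.00522% of all genes called, and 1 member had an unadjusted p under 0.05. The abundant mRNA genes had differences from 0.0042 to 0.031. In both averages mt-Tp had the smallest p among the members, with 0.12 for Ccdc82-/- (SE 0.063, adjusted p = 1.0) and 0.14 for Ccdc82+/- (SE 0.062, adjusted p = 0.905). Both averages use the same libraries of mice with intact Ccdc82. DESeq2 and limma called 0 members in either.

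The 4 single contrasts of Ccdc82 each gave 0 of 22 members, with 0.00522% of all genes called in each. For Q140 x Ccdc82-/- against Q140 the smallest p was that of mt-Tp, which lay between 2.39 and 3.18 CPM in Q140 x Ccdc82-/- and between 1.90 and 3.05 CPM in Q140 (0.24, SE 0.090, adjusted p = 0.997). For Q140 x Ccdc82+/- against Q140 it was again mt-Tp (0.17, SE 0.088, adjusted p = 0.923). For Ccdc82-/- against WT it was mt-Tt (0.15, SE 0.084, adjusted p = 0.999), and for Ccdc82+/- against WT it was mt-Nd6 (0.38, SE 0.14, adjusted p = 0.993). At an unadjusted p under 0.05 stood 1 member in Q140 x Ccdc82-/- against Q140, 1 in Ccdc82+/- against WT and 0 in the other two, and DESeq2 and limma called 0 members in each of the 4. This mt-Nd6 difference and that of Q140 against WT use the same WT libraries.

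mt-Nd6 was the member whose level varied most among the mRNA genes outside the copied stretch, with a coefficient of variation of 22.1% over all libraries, against 3.81% to 5.05% for the 6 abundant mRNA genes. Its lowest, median and highest levels were 40.7, 45.8 and 71.6 CPM in Q140 x Ccdc82-/-, 35.3, 41.2 and 60.5 CPM in Q140 x Ccdc82+/-, 38.9, 48.9 and 67.8 CPM in Q140, 36.1, 44.6 and 58.5 CPM in Ccdc82-/-, 39.3, 43.7 and 72.2 CPM in Ccdc82+/-, and 33.2, 40.7 and 48.0 CPM in WT. Libraries above 48.0 CPM occurred in every group but WT, and every group overlapped WT. The test of whether the Q140 difference depends on Ccdc82+/- gave mt-Nd6 an interaction of -0.61 (SE 0.20, unadjusted p = 0.00448 by edgeR, adjusted p = 1.0), with differences of -0.23 (SE 0.14) on Ccdc82+/- and 0.38 with intact Ccdc82. No gene was called in that interaction (0% of 19174; 674 had an unadjusted p under 0.05, 1 of them a member), nor in the interaction of Q140 with Ccdc82-/- (0%; 567 genes at an unadjusted p under 0.05, 1 of them a member). In that interaction mt-Tt had the smallest p among members (-0.24, SE 0.12, adjusted p = 1.0). DESeq2 and limma called 0 genes in either interaction.

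The high mt-Nd6 libraries were not spread evenly over the library plate, whose wells the labels give. mt-Nd6 had a median of 58.4 CPM in row A (n = 6) and 53.4 CPM in row B (n = 6), and medians from 40.8 to 44.5 CPM in rows C to H. Row A held no WT library and row B held 1, whereas rows E to G held 6 of the 8. With plate row as a factor, a setting added after the data were seen, the Q140 against WT difference was 0.26 (SE 0.15) and the interaction with Ccdc82+/- was -0.43 (SE 0.22). By plate column the medians lay between 40.98 and 52.99 CPM, the highest in column 4. Columns 4 and 1 (47.2 CPM) held no WT library. With plate column as a factor the difference was 0.27 (SE 0.15) for Q140 against WT and 0.21 (SE 0.16) for Ccdc82+/- against WT, and the interaction was -0.46 (SE 0.22). The part of plate position in the mt-Nd6 values was not tested further.

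**Figure D4:**
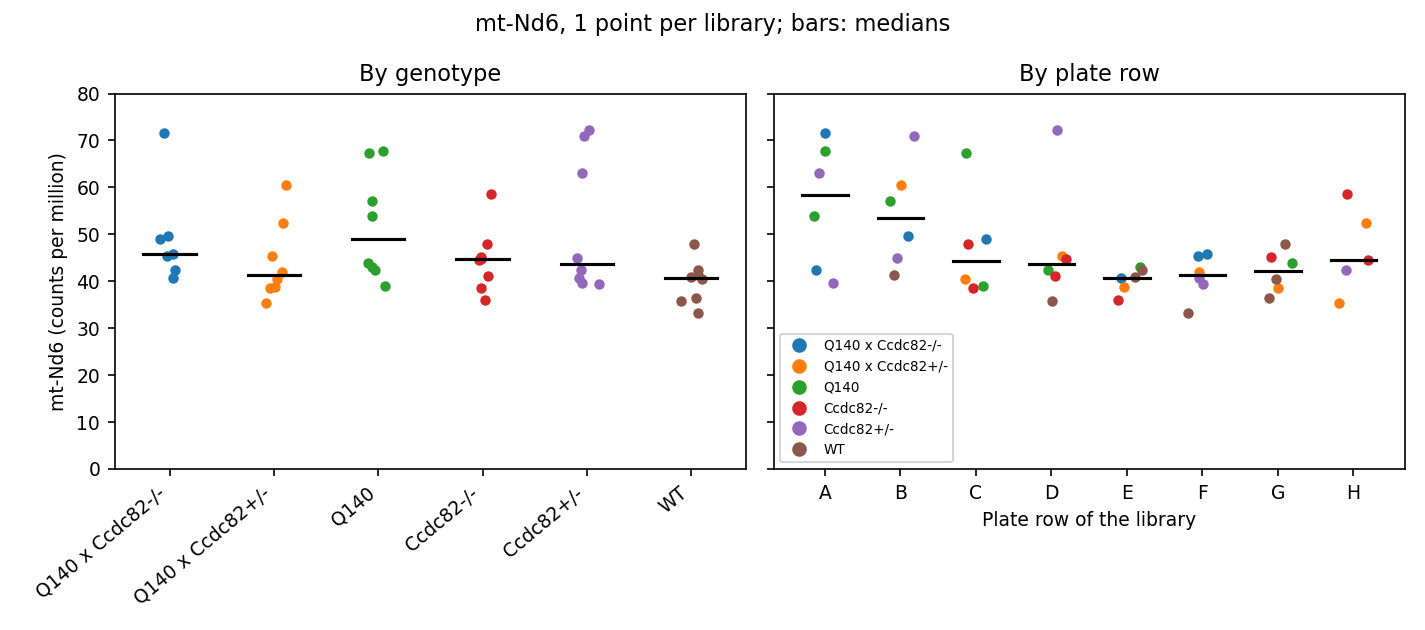
mt-Nd6 in CPM for each library, by genotype (left) and by plate row (right, coloured by genotype), with medians as black bars. All WT libraries lie at or below 48.0 CPM, and the highest medians by row are 58.4 CPM in row A and 53.4 CPM in row B.

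Between the sexes 1 of 22 members was called, against 10.5% of all genes. mt-Nd2 lay between 3252 and 3681 CPM in males (median 3525, n = 24) and between 3294 and 4104 CPM in females (median 3685, n = 23), with a log2 difference of -0.066 (SE 0.019, adjusted p = 0.0207 by edgeR). The sexes overlapped, with the female median just above the highest male library. The male mean was below the female mean in each of the 6 genotypes, but in Ccdc82-/- (3510 ± 188 CPM in males and 3541 ± 46.6 CPM in females, SD, n = 4 each) this rested on male M2 with 3252 CPM. The medians there ran the other way, with 3557 CPM in males and 3534 CPM in females. In all, 8 of the 22 members (36.4%) had an unadjusted p under 0.05, against 25.99% of all genes. They were mt-Nd2, mt-Nd4, mt-Nd4l, mt-Nd5, mt-Co1, mt-Cytb, mt-Ti and mt-Tm, each with a negative difference. mt-Nd1 had -0.00082 (SE 0.016), mt-Rnr1 -0.0022 (SE 0.034) and mt-Rnr2 -0.013 (SE 0.033). The log2 ratio of mt-Nd2 to mt-Nd1 was -0.55 ± 0.060 in males (SD, n = 24) and -0.49 ± 0.042 in females (SD, n = 23), a difference that was not tested.

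The sex difference has limits set by the labels. The number within each library name, whose meaning is not given, takes 19 values, 10 in females and 9 in males, with 0 shared by the sexes. With that number as a random block in limma, 0 of 22 members were called, against 4.72% of all genes, and mt-Nd2 had -0.063 (adjusted p = 0.0756); 5 members had an unadjusted p under 0.05. The count was 3 without Q140 x Ccdc82-/- F1 and 2 without WT M3, settings added after the data were seen. The 9 nuclear copies of mitochondrial DNA had a median difference of -0.11 and lay below 0 in 9 of 9, none called. In the edgeR fit, which has no library-name block, 2 of 4 endothelial markers were called, both lower in males, against 10.5% of all genes called in either direction. They were Cldn5, a tight-junction protein of brain capillaries (-0.21, SE 0.042, adjusted p = 0.00110 by edgeR), and Flt1, a VEGF receptor (-0.082, SE 0.027, adjusted p = 0.0468). Of the 4 markers, 3 lay below 0 and 1 above. The summed level of the 4 markers lay between 124 and 155 CPM in males and between 126 and 161 CPM in females. The part of these values in the mt-Nd2 result was not tested.

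How the members varied together over the 47 libraries was described with genotype and sex means removed from log2 CPM. The rRNA genes varied closely together: mt-Rnr1 and mt-Rnr2 had a Pearson r of 0.99 and a Spearman rho of 0.98 (permutation p = 1e-05 each, the smallest that 100000 permutations can give; adjusted over 20 relations 1.7e-05 and 1.8e-05), and r was 0.98 without the 2 farthest libraries. The 6 abundant mRNA genes formed a second block, with r between 0.64 and 0.90 over 15 pairs. mt-Co1 and mt-Cytb had r = 0.88 (rho 0.86) and 0.84 without the 2 farthest libraries; with plate row and column removed it was 0.91, and it was 0.84 in males and 0.91 in females. Its adjusted permutation p-values were the same as those of the rRNA pair.

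The rRNA genes and the abundant mRNA genes, which derive from precursors of the same strand, showed little covariation. Between the rRNA genes and the abundant mRNA genes r lay between -0.25 and 0.22 over 12 pairs. mt-Co1 and mt-Rnr2 had r = -0.043 (permutation p = 0.773, adjusted 0.773) and rho = -0.079 (permutation p = 0.598, adjusted 0.598). r was -0.053 without the 2 farthest libraries, 0.14 with plate row and column removed, -0.22 in males and 0.13 in females. mt-Nd6 had r between -0.23 and 0.048 with the 6 abundant mRNA genes: with mt-Nd5, its partner on the opposite strand, r was -0.12 (permutation p = 0.406, adjusted 0.427) and rho -0.097 (permutation p = 0.518, adjusted 0.546), and r was 0.047 without the 2 farthest libraries. Of the other minus-strand genes that passed the filter, mt-Ta had r = 0.21 with mt-Nd6 and mt-Tp 0.32, near the 0.27 of the plus-strand gene mt-Rnr2. No p was computed for these values. The highest value was that of mt-Tq, which rests on 47 counts in the median library: r was 0.54 and rho 0.50 (permutation p = 0.00014 and 0.00048, adjusted 0.000215 and 0.000739), r was 0.50 without the 2 farthest libraries and 0.60 with plate row and column removed. The p-values of mt-Tq do not allow for its being the highest of the members compared with mt-Nd6, so no conclusion on the minus strand is drawn from them.

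Of the low genes of the copied stretch, mt-Co2, mt-Atp6 and mt-Co3 varied with their chromosome 1 copies. mt-Co2 with Gm28661 had r = 0.79 (rho 0.67; 0.70 without the 2 farthest libraries), mt-Atp6 with Gm10925 0.80 (rho 0.75; 0.75) and mt-Co3 with Gm28437 0.72 (rho 0.65; 0.61), each with a permutation p of 1e-05, the smallest the permutations can give (adjusted 1.7e-05 for r and 1.8e-05 for rho). mt-Nd4l and Gm10222 had r = 0.41 (rho 0.42; permutation p = 0.00395 and 0.00292, adjusted 0.00564 and 0.00417; r was 0.45 without the 2 farthest libraries). mt-Co1 and mt-Co3, subunits of the same enzyme, had only r = 0.33 (rho 0.37; permutation p = 0.0254 and 0.0121, adjusted 0.0338 and 0.0161; r was 0.38 without the 2 farthest libraries). mt-Nd3 and Gm28438 had r = 0.19 (rho 0.15; permutation p = 0.200 and 0.303, adjusted 0.235 and 0.337; r was 0.064 without the 2 farthest libraries) at 58 and 122 counts in the median library. With plate row and column removed, the 3 pairs of mt-Co2, mt-Atp6 and mt-Co3 with their copies kept r from 0.63 to 0.77. Low genes varied about as closely with each other: r was 0.76 for mt-Co2 and mt-Co3, 0.77 for mt-Co2 and mt-Atp6, and 0.74 for mt-Atp6 and mt-Atp8. The abundant mt-Nd4 and its copy Gm28439 had r = 0.32 (rho 0.30, permutation p = 0.0306 and 0.0438, adjusted 0.0382 and 0.0548). For this pair r was 0.70 with plate row and column removed, but 0.098 with the library-name number removed.

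**Figure D5:**
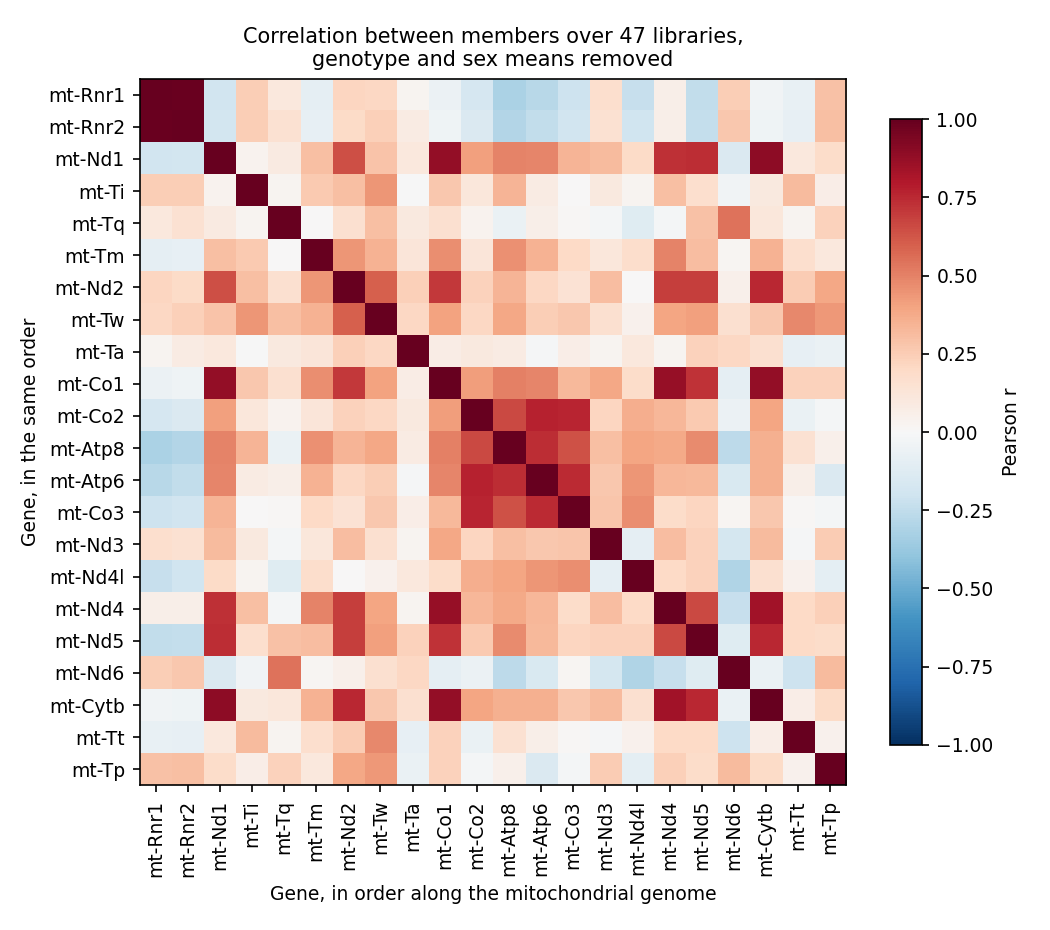
Pearson r between the 22 members over 47 libraries, with genotype and sex means removed, in order along the mitochondrial genome on both axes (red positive, blue negative). Dark blocks mark the pair of rRNA genes (0.99), the abundant mRNA genes (0.64 to 0.90) and the run from mt-Co2 to mt-Co3, while the rRNA genes are pale against the mRNA genes.

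Among 19126 nuclear genes, those most like the equally weighted mean of the 13 mRNA genes were mostly nuclear copies of mitochondrial DNA. Of the 10 highest, 8 were such copies, led by Gm29216 (r = 0.85) and Gm13340 (r = 0.81). The other two were Dmwd (0.67) and Tmub2 (0.66). At the other end stood the zinc finger genes Zfp952 (-0.66), Zfp949 (-0.62) and Zfp961 (-0.58), with Gm15542, Gdap1, Zfyve9, Msh6, Sec63, Cct8 and Dnajc7 between -0.62 and -0.58. The mean of the 13 mRNA genes counts the 6 low genes of the copied stretch, whose sequence the copies share, as much as the 6 abundant ones. With the mean of the 6 abundant mRNA genes alone, Tspan7 (0.78) and Fads1 (0.75) came highest, and no nuclear copy was among the 10 highest. These correlations over 47 libraries share library depth and normalization and carry no test.

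Nuclear genes that run mitochondrial gene expression were not called for genotype either. Of 10 genes of mitochondrial transcription, among them Polrmt, Tfam and Tfb2m, 0 were called for Q140, Ccdc82-/- or Ccdc82+/- in the averaged contrasts. The same held for 17 genes of RNA processing and stability, such as Lrpprc, 13 of mitochondrial DNA replication and maintenance, such as Polg, and 9 biogenesis regulators, such as Ppargc1a. For Q140 the list medians lay between -0.0092 and 0.0032, beside 0.00085 for all genes tested. The closest to a call was Rrm2b, a ribonucleotide reductase subunit that supplies nucleotides for mitochondrial DNA, with a log2 difference of 0.056 (SE 0.016, adjusted p = 0.0761). It passed the threshold with DESeq2 (adjusted p = 0.0466) and with plate column as a factor (adjusted p = 0.0230). By edgeR's quasi-likelihood test, Fastk, which acts on mt-Nd6 mRNA, had -0.058 (SE 0.020, adjusted p = 0.233), Mterf1b 0.080 (SE 0.080) and Gabpa 0.052 (SE 0.031).

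For Ccdc82-/- the smallest p-values of the 4 lists were those of Mterf1b (-0.16, SE 0.098), Mtpap, the mitochondrial poly(A) polymerase (0.046, SE 0.025), Top1mt (0.055, SE 0.033) and Esrrg (0.085, SE 0.049), each with an adjusted p of 1.0. For Ccdc82+/- they were those of Mterf3 (0.046, SE 0.021), Rexo2 (-0.040, SE 0.021), Top1mt (0.073, SE 0.033) and Ppargc1a (0.054, SE 0.022), each with an adjusted p of 0.905. None of the marker lists of excitatory neurons, astrocytes, oligodendrocytes, microglia, endothelial cells, red blood cells and choroid plexus held a called gene in these averages by edgeR's quasi-likelihood test. Between the sexes, 4 of 13 replication and maintenance genes were called, against 10.5% of all genes, a share that was 4.72% with the library-name block. Tk2 and Primpol were higher in males, and Mgme1 and Mpv17 lower.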

How the data were processed

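The deposited count table holds raw counts per gene, and the deposited FPKM table holds FPKM (scaled to gene length and library size), both made by the authors. GRCm38, mm10, HTSeq 0.12.3, SAMtools 1.10 and STAR 2.7.5c are listed in the submitters' processing notes. The sample titles say mRNA, but the sources used here do not state poly(A) selection. They also do not give the annotation release, strand setting or treatment of reads with several matches. The members, lists and alternatives were chosen with earlier results of these data known. Genes passing filterByExpr (minimum count 10, minimum total 15) were fitted in edgeR 4.0.16 with TMM scaling, the quasi-likelihood test, 6 genotype means and sex, in all 47 libraries, and p-values were adjusted by Benjamini-Hochberg over 19174 genes. log2 CPM for correlations used a prior count of 2. Alternatives were DESeq2 1.42.0, limma 3.58.1 on log2(FPKM + 1), RLE scaling, totals without the members, no filter, no sex term, the compared groups alone, plate column or row, a replicate block and a library-name block. Members are named with their levels, and per contrast the called members or else the 1 with the smallest p. Sequences and coordinates came from GENCODE M21 (GRCm38), searched with BLAST 2.17.0 over 141730 other transcripts. Nothing in the sources says that libraries came from separate litters, so p-values measure the spread between these mice. The test of the striatal marker list is not reported here.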

Additional observations from a re-analysis of the deposited data

Results flagged for a closer look

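Gaps between the highest or lowest library and the rest of its group were looked for in 108 sets of values, the shares and the mRNA and rRNA levels in each of the 6 genotypes. Chance alone marks about 1 set in 20, and 5 were marked. The share of counts in the members was 4.71% in WT M3, against 4.43% to 4.56% in the other WT libraries. mt-Nd6 stood at 71.6 CPM in Q140 x Ccdc82-/- F1, in plate row A, against 40.7 to 49.7 CPM in the rest of that group. mt-Nd2 was 3252 CPM in Ccdc82-/- M2, against 3494 to 3674 CPM. mt-Co2, a gene of the copied stretch, was 13.3 CPM in Ccdc82-/- F2, against 8.26 to 10.5 CPM, and 8.69 CPM in Q140 F4, against 9.47 to 10.02 CPM. Without Ccdc82-/- M2, a setting added after the data were seen, the male against female difference of mt-Nd2 was -0.061 (adjusted p = 0.0355 by edgeR).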

How the results depend on the processing

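In the 12 genotype contrasts the count of members called was 0 under each alternative run, those added after the data were seen (plate row, and leaving out each of 3 libraries) included. Male against female, the count was 2 with plate column as a factor and 0 with the library-name block; leaving out one of 3 libraries gave 1 to 3, namely mt-Nd2 with mt-Cytb without WT M3, and mt-Nd2, mt-Cytb and mt-Nd5 without Q140 x Ccdc82-/- F1. The cause was not tested. mt-Nd2 kept its direction in 11 of 11 alternatives, from -0.078 to -0.056. In each contrast the median difference of the mRNA genes moved by less than 0.0942 in each alternative run, the spread between replicates of their mean log2 CPM. This is a wide margin, since the medians of the fit described ran only from -0.066 (male against female) to 0.022 (Ccdc82+/- against WT). A change of sign could therefore pass, and in 6 of the 13 contrasts the median changed sign in some alternatives. The mean share was 4.54% also without the nuclear copies in the total, 3.94% for the 13 mRNA genes alone and 13.1% as a share of summed FPKM. Calls over all genes, members included, depended more on the setting. There were 5 to 24 for Q140 against WT (6 in the fit described) and 2 to 9 for Q140 x Ccdc82+/- against Ccdc82+/- (6). For Q140 x Ccdc82-/- against Ccdc82-/- there were 2 to 6 (4), for Q140 averaged 97 to 239 (168) and between the sexes 905 to 2769 (2018). With the title number as a replicate block the count of members called stayed at 0 in the 12 genotype contrasts, with 154 genes called for Q140 averaged. Same-numbered libraries had a median r of 0.015 (-0.205 to 0.288 over 115 pairs), beside -0.0042 (-0.249 to 0.225 over 345 pairs) for other numbers. Of the 47 libraries, 17 correlated best with their own number, and how many would do so by chance was not worked out. For the sexes neither this block nor the fit without a sex term was run, and fits of the compared groups alone were made only for the single contrasts. Depth limits the tRNA and low mRNA genes, which rest on as few as 12 counts in the median library.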

Other observations

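The genes most like the rRNA pair, looked up after the values were seen, differed from those most like the mRNA genes. Over 47 libraries, with genotype and sex means removed, the mean of mt-Rnr1 and mt-Rnr2 correlated most with Xbp1, a transcription factor of the unfolded protein response (r = 0.87), and Hspa5, the chaperone BiP of the endoplasmic reticulum (r = 0.86). Ubfd1 (0.84), Pdia6 (0.84), Ankrd13c (0.83), Manf (0.83), Ppp2r5a (0.83), Tmem198 (0.83), Pdia4 (0.83) and Creld2 (0.83) completed the 10 highest; Pdia6 and Pdia4 are protein disulfide isomerases of the same compartment, and Manf and Creld2 are secreted or resident proteins of it. With plate row and column removed, Xbp1 had 0.86 and Hspa5 0.84, and with the library-name number removed 0.79 and 0.83. With that number removed Tmem198 fell to 0.48, Ppp2r5a to 0.57 and Creld2 to 0.67. The rest of the 10 then lay between 0.71 (Pdia6) and 0.85 (Ankrd13c). Xbp1 had 0.89 in males and 0.84 in females. At the negative end were Slc9a8 (-0.83), a sodium-proton exchanger, and Usp3 (-0.82). Ranking and values come from the same libraries, so these values carry no test.

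mt-Nd6, ranked in the same way, was most like Malat1, an RNA retained in the nucleus (r = 0.67; 0.63 with plate row and column removed), followed by Gm44021 (0.625), Col1a1 (0.60), Lrrk1 (0.60), Nradd (0.60), Vim (0.58), Lamb2 (0.555), Foxd1 (0.54), Maf (0.54) and Anxa2 (0.54). The mean of the 6 abundant mRNA genes was most like Tspan7 (0.78), Fads1 (0.75), Tmub2 (0.75) and Cd81 (0.75), and least like Gprasp1 (-0.69) and Mex3a (-0.66). Hepacam, an astrocyte adhesion protein (0.705), Mt2, a metallothionein (0.71), and Atpif1, an inhibitor of ATP synthase (0.72), were also among its 10 highest.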
